A study of Homo sapiens with 24 samples.

Results

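The genes described are 10 genes of the YAP/TAZ transcription system, followed in SW1783 cells treated with extracts of Schisandrae Fructus, the fruit of Schisandra chinensis. They are CCN1, CCN2, ANKRD1, AMOTL2, AXL, LATS2 and AJUBA, which are commonly used as target genes of YAP and TAZ, and YAP1, WWTR1 (the gene of TAZ) and TEAD1, which encode the coactivators and a DNA-binding partner. They were found by their Ensembl identifiers among the 60675 genes of the deposited table, all 10 were present, and all 10 passed the filter on low counts in every comparison. The rule is a list of gene names and holds no threshold on measured values, though earlier results of these data were known when it was written.

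SW1783 is an established human astrocytoma line, so every library comes from 1 line. Cells were treated for 24 h. Batch A held the water extract, WESF, at 500 µg/mL (high dose), 100 µg/mL (medium dose) or 20 µg/mL (low dose), and its vehicle, called vehicle A here. Batch B held the ethanol extract, EESF, at 310, 62 or 12.4 µg/mL, and vehicle B. The vehicle was 0.1% DMSO in buffered saline, and all 8 groups had 3 libraries. Total counts per library were 18727797 to 32567395, with 26447834 to 28461841 in vehicle A and 18727797 to 20465712 in vehicle B. The high dose of EESF was set by the study at a concentration that lowered viability in a screen, while that of WESF was not toxic there. The labels do not say whether the 3 replicates were separate cultures, so the p-values measure the spread between these libraries, which may be technical. Because every EESF library belongs to batch B, extract and batch cannot be told apart, and the doses of the extracts differ in µg/mL.

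YAP and TAZ are coactivators without a DNA-binding domain of their own. They enter the nucleus and bind TEAD factors when the Hippo kinases (MST1 and MST2, encoded by STK4 and STK3, then LATS1 and LATS2) are inactive, and phosphorylation by LATS kinases holds them in the cytoplasm. Their activity rises with cell spreading, stiff substrates and actin tension, and in glioma cells they are known for growth and invasion programmes. Several targets feed back on the pathway, since LATS2 and AMOTL2 restrain YAP. The same promoters can also answer to SRF with its actin-regulated cofactors MRTF, to AP-1 and to TGF-beta signalling, so that a target's RNA is not a measure of YAP alone. RNA levels do not show where YAP and TAZ proteins were.

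Sequences of the 250 bases before the transcription start were read for the genes from RefSeq's promoter table (GRCh38.p14), which matched 8 of the 10 genes (AMOTL2, AXL, AJUBA and WWTR1 with an entry for each of 2 starts). CCN1 and TEAD1 were not among them. The promoters of CCN2 and ANKRD1 are printed because these targets changed in opposite directions at the high doses although both hold GGAATG, the core letters that TEAD factors recognise. That of YAP1 is printed because it holds the same letters in the gene of the coactivator itself. Each runs 5′ to 3′ on the gene's strand, and capitals mark GGAATG.

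CCN2, chr6:131951373-131951622, minus strand: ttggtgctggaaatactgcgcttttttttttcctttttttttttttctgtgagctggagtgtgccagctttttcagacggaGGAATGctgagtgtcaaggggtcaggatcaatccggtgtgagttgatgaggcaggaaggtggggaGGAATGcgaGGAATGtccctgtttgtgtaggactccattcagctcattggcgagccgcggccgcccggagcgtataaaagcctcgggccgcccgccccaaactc
ANKRD1, chr10:90921088-90921337, minus strand: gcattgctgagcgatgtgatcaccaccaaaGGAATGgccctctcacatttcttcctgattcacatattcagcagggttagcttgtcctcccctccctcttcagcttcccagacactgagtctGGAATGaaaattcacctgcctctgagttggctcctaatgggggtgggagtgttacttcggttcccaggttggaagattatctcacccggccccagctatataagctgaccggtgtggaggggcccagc
YAP1, chr11:102110197-102110446, plus strand: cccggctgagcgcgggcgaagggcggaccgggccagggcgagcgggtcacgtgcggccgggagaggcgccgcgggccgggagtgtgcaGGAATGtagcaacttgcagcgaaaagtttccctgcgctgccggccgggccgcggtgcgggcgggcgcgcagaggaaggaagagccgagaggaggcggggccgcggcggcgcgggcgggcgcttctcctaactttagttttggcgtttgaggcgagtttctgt

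In CCN2 the letters stand 3 times, beginning 169, 104 and 95 bases before the start. In ANKRD1 they stand 2 times, beginning 220 and 128 bases before the start, and an AP-1 type motif, TGANTCA, begins 195 bases before it. YAP1 holds them once, at 162 bases. Searched on both strands, GGAATG was found in 6 of the 12 entries, at least 1 for each of 6 genes (CCN2, ANKRD1, YAP1, AMOTL2, AXL and AJUBA), and in neither LATS2 nor WWTR1. For AMOTL2, AXL and AJUBA only the entry of the start further into the gene held GGAATG, and that of the other start did not. Among all 35116 promoters 11.9% held it at least once, 0.94% at least 2 times and 0.0826% at least 3 times, and 6.57% held TGANTCA. A match of letters is a description and not a binding site.

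In vehicle cells, the level per transcript length (CPM, the count scaled to sequencing depth with TMM library sizes, per kb of the Ensembl canonical transcript, mean ± SD over the 6 vehicle libraries) was highest for CCN1, at 217 ± 7.05. AXL followed with 163 ± 8.15, then CCN2 with 70.4 ± 3.23. YAP1, at 29.2 ± 1.21, and TEAD1, at 28.3 ± 2.30, overlapped in range, whereas AJUBA was lower, at 21.0 ± 1.01. WWTR1, at 14.2 ± 1.00, and AMOTL2, at 12.8 ± 0.253, overlapped as well. LATS2 had 6.79 ± 0.353 and ANKRD1, the lowest, 5.39 ± 0.530, with no overlap between them. CCN1 thus stood at the top and ANKRD1 at the bottom of the order before any extract was given.

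The label of the line was compared with marker genes. Of 8 astrocyte markers, 5 were under 1 CPM in every group (GFAP, S100B, ALDH1L1, AQP4 and SLC1A2), so the defining markers of astrocytes were absent or nearly so. GJA1 (204 CPM in vehicle A), SOX9 (81.7) and SLC1A3 (31.8) were present. All 6 mesenchymal markers were found, led by COL1A1 with 3797 CPM, and their summed level in vehicle A was 5607 to 5871 CPM. Among epithelial markers KRT18 (124 CPM) and KRT8 (15.3) were found while EPCAM and CDH1 were near 0. Of the neuronal and immune markers SNAP25 (28.2 CPM), SYT1 (25.3), PTPRC (10.2) and CSF1R (3.64) were counted, and AIF1 was at 0 in all vehicle libraries.

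Vehicle libraries of the batches resembled each other. For vehicle B against vehicle A none of the 10 genes and 0 of 13001 genes tested were called at an adjusted p under 0.05 (edgeR's quasi-likelihood test, 0% of genes), with 371 genes at an unadjusted p under 0.05. DESeq2 called 3 genes, none of them among the 10. The same-numbered vehicle libraries were the most alike between the batches, where chi-square over its degrees of freedom was 3.33 to 3.61, against 4.30 to 11.2 in the other pairs. Their deviations from the group means correlated over the 9549 genes of at least 10 CPM (r = 0.679, 0.355 and 0.612 for replicates 1 to 3) and little over all 13516 genes (r = 0.130, 0.0298 and 0.0422). Whether they share a source is not stated in the labels and was not tested. With the replicate number as a block, 236 genes were higher and 242 lower in vehicle B, and CCN1 was the 1 gene of the 10 among them (log2 fold change -0.07, adjusted p = 0.00307).

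**Figure D1:**
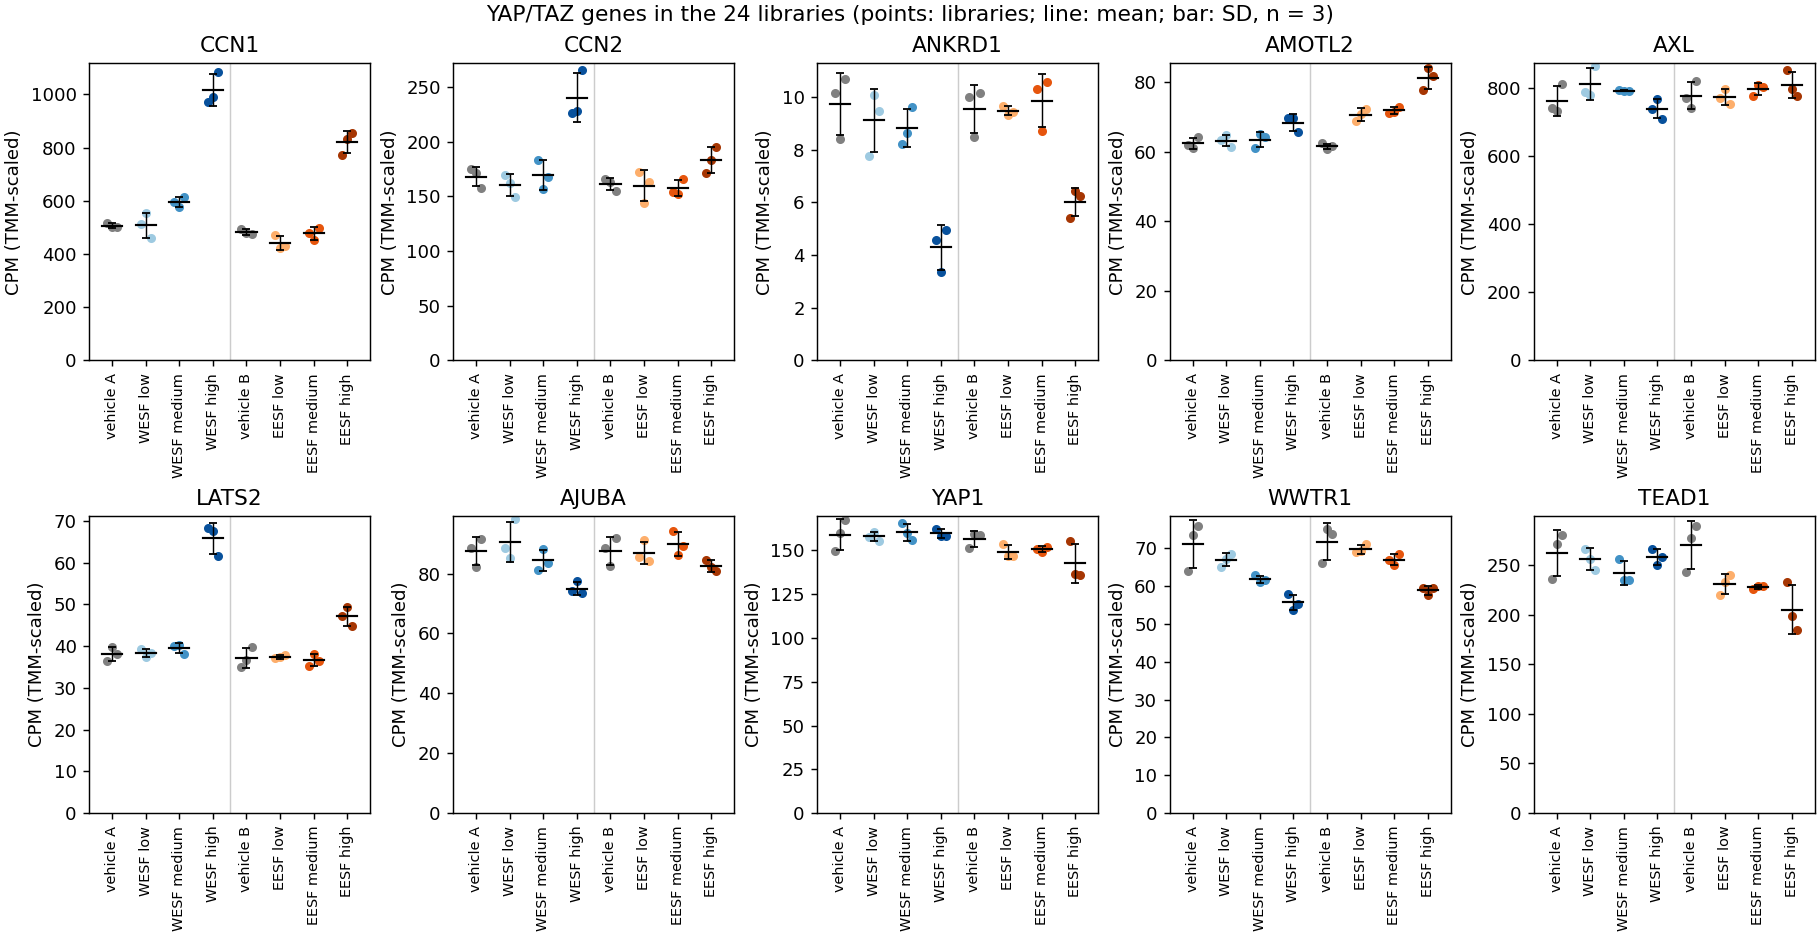
Level of each of the 10 genes in all 24 libraries, as CPM with TMM-scaled library sizes on an axis that starts at 0. Points are libraries, lines are means and bars are SD of 3 libraries. CCN1, CCN2 and LATS2 stand highest in the WESF high dose and ANKRD1 lowest there, while AXL and YAP1 keep a nearly level line.

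The secreted matricellular proteins CCN1 and CCN2 (CYR61 and CTGF), whose genes are the standard reporters of YAP activity, were the first members examined. CCN1 (chr1:85580761-85584589, GRCh38) was counted at 518, 501 and 500.4 CPM in the vehicle A libraries. It reached 973, 989.8 and 1084 CPM with the high dose of WESF, above every vehicle library. The rise was 2.00-fold (log2 fold change 1.00, SE 0.048, adjusted p = 1.43e-11, edgeR). The high dose of EESF gave 774, 832 and 854 CPM against 494, 479 and 474 CPM in vehicle B. These groups did not overlap either, and the rise was 1.70-fold (log2 fold change 0.77, SE 0.053, adjusted p = 2.32e-07, edgeR).

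CCN1 also rose at the medium dose of WESF, where the libraries held 596, 575 and 613 CPM (log2 fold change 0.23, SE 0.040, adjusted p = 0.0069, edgeR). This call was lost without vehicle A replicate 2 (adjusted p = 0.0576) or without replicate 3 of the dose (adjusted p = 0.0714). At the low dose of WESF the libraries, with 512, 554 and 459 CPM, lay on both sides of the vehicle. With EESF the medium dose gave 480.5, 452 and 499 CPM and the low dose 471, 422 and 429 CPM. The low-dose libraries lay below all of vehicle B, with a log2 fold change of -0.14 and an adjusted p of 0.0721 by edgeR. CCN1 was called lower there with DESeq2 (adjusted p = 0.0450), with no filter on low counts (adjusted p = 0.0478) and without low-dose replicate 1 (adjusted p = 0.0442). It was also called with the replicate block (adjusted p = 0.03) and with the length trend removed (-0.20, adjusted p = 0.00452).

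CCN2 (chr6:131948176-131951372) held 175, 171 and 158 CPM in vehicle A. In the high dose of WESF it held 226, 228 and 266 CPM, and the groups did not overlap. The rise was 1.43-fold (log2 fold change 0.51, SE 0.059, adjusted p = 7.08e-07, edgeR). In vehicle B the libraries had 166, 163 and 155 CPM and in the high dose of EESF 171, 184 and 195 CPM. The smallest treated value was above the largest control value, and the 1.14-fold rise passed the test (log2 fold change 0.19, SE 0.058, adjusted p = 0.0149, edgeR), although not after leaving out any of 4 libraries (vehicle B replicate 2 or 3, high-dose replicate 2 or 3), with an adjusted p of 0.0515 to 0.0794. None of the medium and low doses moved CCN2 past the test, and their log2 fold changes lay between -0.07 and 0.01.

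ANKRD1, the gene of a stress-responsive cardiac ankyrin repeat protein that is a strong YAP target in many cell types, moved the other way. It lies at chr10:90912096-90921087. The vehicle A libraries held 10.1, 8.43 and 10.7 CPM and the high dose of WESF 4.57, 3.35 and 4.95 CPM. All 3 treated libraries were below all 3 controls, and ANKRD1 fell to 0.444 of the vehicle level (log2 fold change -1.17, SE 0.13, adjusted p = 5.28e-07, edgeR). With the high dose of EESF it went from 10.0, 8.49 and 10.2 CPM to 5.41, 6.42 and 6.25 CPM. That fall, to 0.633 of vehicle B, was likewise without overlap (log2 fold change -0.66, SE 0.11, adjusted p = 2.21e-04, edgeR). ANKRD1 rests on the fewest reads of the 10 genes, 68 to 298 counts per library.

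LATS2, the Hippo kinase that YAP induces and that restrains it in turn (chr13:20973036-21061586), was counted at 36.4, 39.8 and 38.1 CPM in vehicle A. The high dose of WESF brought 68.3, 67.5 and 61.6 CPM. This 1.73-fold rise left a wide gap between the groups (log2 fold change 0.79, SE 0.054, adjusted p = 1.32e-09, edgeR). For EESF the values were 34.95, 36.7 and 39.9 CPM in the vehicle and 47.3, 49.3 and 44.8 CPM at the high dose. The rise was smaller, 1.27-fold, and the groups stayed apart (log2 fold change 0.34, SE 0.067, adjusted p = 8.04e-04, edgeR). At the other 4 doses its log2 fold changes were between -0.02 and 0.05, and none was called.

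AMOTL2 encodes a motin that binds YAP and keeps it at junctions (chr3:134355347-134375479). Its vehicle B libraries, at 62.4, 60.9 and 61.6 CPM, were below every EESF library. The low dose gave 68.8, 70.9 and 72.4 CPM, the medium dose 71.1, 71.6 and 73.0 CPM and the high dose 77.9, 84.0 and 81.9 CPM. AMOTL2 rose 1.14-fold (adjusted p = 0.0161), 1.17-fold (adjusted p = 0.0044) and 1.32-fold (adjusted p = 4.44e-05) in that order, by edgeR. The low-dose call was lost without vehicle B replicate 2, low-dose replicate 2 or low-dose replicate 3 (adjusted p = 0.0750 to 0.0894). With the high dose of WESF it moved from 62.0, 61.1 and 64.3 CPM to 69.8, 69.8 and 65.8 CPM, a log2 fold change of 0.13 (adjusted p = 0.0194, edgeR). That call was lost without vehicle A replicate 2 or high-dose replicate 1 or 2 (adjusted p = 0.0615 to 0.0944).

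AXL, a receptor tyrosine kinase (chr19:41219223-41261766), was the gene with the second highest level per transcript length, and no dose passed the test for it against the vehicle without a correction for transcript length. Its libraries spanned 733 to 813 CPM in vehicle A and 711 to 768 CPM in the high dose of WESF. In batch B they spanned 740.5 to 820 CPM in the vehicle and 776 to 852 CPM in the high dose. The groups overlapped at every dose of either extract. At the high doses the 95% intervals of the log2 fold change were -0.15 to 0.06 for WESF and -0.07 to 0.18 for EESF.

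AJUBA encodes a LIM protein that binds LATS kinases and limits them (chr14:22971177-22982551). It went from 88.7, 82.2 and 91.4 CPM in vehicle A to 74.2, 77.4 and 73.4 CPM with the high dose of WESF, a fall without overlap (log2 fold change -0.22, SE 0.049, adjusted p = 6.88e-04, edgeR). With EESF it had 84.7, 82.2 and 80.8 CPM at the high dose against 88.4, 82.5 and 91.8 CPM, and the change was not called (log2 fold change -0.08, SE 0.056, adjusted p = 0.209, edgeR). A protein-coding gene on the same strand, ENSG00000259132, shares exons with AJUBA, and its counts reached 5.84% of those of AJUBA, so that reads may have been divided between them.

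YAP1 (chr11:102110447-102233424) was not called at any dose in the fits of 6 libraries. It had 149, 160.1 and 167 CPM in vehicle A and 162, 158 and 158 CPM in the high dose of WESF. The log2 fold change was 0.01, with a 95% interval of -0.10 to 0.11. In batch B the vehicle had 151, 159 and 159 CPM and the high dose 156, 137 and 136 CPM. Replicate 1 of that dose lay among the vehicle libraries and the others below them, with a log2 fold change of -0.13 and an adjusted p of 0.0735 by edgeR. Without that library the log2 fold change was -0.20 and the adjusted p 0.00417, and with all 4 groups of the batch in the fit, every library kept, they were -0.14 and 0.0270.

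WWTR1, which encodes TAZ (chr3:149517235-149736714), fell with both extracts. Vehicle A held 64.1, 73.5 and 75.9 CPM, and replicate 1 was the lowest in both vehicles. The high dose of WESF gave 57.9, 53.8 and 55.4 CPM, below all of its controls (log2 fold change -0.35, SE 0.060, adjusted p = 6.03e-05, edgeR). Vehicle B held 66.1, 75.2 and 73.9 CPM and the high dose of EESF 59.6, 57.6 and 59.5 CPM (log2 fold change -0.28, SE 0.060, adjusted p = 0.00153, edgeR), again without overlap. At the medium dose of WESF the libraries, at 62.9, 61.0 and 61.5 CPM, were also below vehicle A, with an adjusted p of 0.0625 by edgeR. It was called with no filter on low counts (adjusted p = 0.0386), with the length trend removed (adjusted p = 0.0233), with all 4 groups of the batch (adjusted p = 0.0288) and without vehicle A replicate 1 (-0.28, adjusted p = 0.00120). An antisense gene, WWTR1-AS1, overlaps an exon, with counts of at most 0.691% of those of WWTR1.

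TEAD1, a DNA-binding factor through which YAP and TAZ act (chr11:12674421-12944737), fell with EESF and did not pass the test with WESF when all libraries were used. It had 236, 271 and 280.2 CPM in vehicle A and 266, 250 and 258 CPM with the high dose of WESF, where the groups overlapped. Without vehicle A replicate 1, the lowest of that group, TEAD1 was called lower at the high dose of WESF (log2 fold change -0.10 in place of -0.02, adjusted p = 0.0468) and at the medium dose (-0.19 in place of -0.12, adjusted p = 0.0124, edgeR). Vehicle B had 243, 277 and 289 CPM. The low dose of EESF gave 219.9, 232 and 239.6 CPM, the medium dose 225, 229 and 228 CPM and the high dose 233, 198 and 184 CPM. Every EESF library was below every vehicle B library. The log2 fold changes were -0.24 (adjusted p = 0.0249), -0.24 (adjusted p = 0.00977) and -0.40 (adjusted p = 0.00163) from the low to the high dose, by edgeR. Leaving out vehicle B replicate 2 ended the medium-dose call (adjusted p = 0.0627), and leaving out any of 5 libraries ended that of the low dose, with low-dose values of -0.26 to -0.17 and adjusted p-values from 0.0728 upwards.

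Transcript length moved with these EESF results. Among all genes tested at the high dose of EESF, those with the shortest transcripts (the first of 4 classes of equal size) were at a median of 0.14 on the log2 scale and those with the longest at -0.16. The medium dose gave 0.10 and -0.11, and the low dose 0.08 and -0.11. For WESF the class of the longest lay at -0.02, -0.04 and -0.01 at the high, medium and low dose. TEAD1 has the longest transcript of the 10 genes, 9417 bases. After a trend on length was subtracted, its log2 fold change was -0.15 at the high dose of EESF (adjusted p = 0.0262), -0.09 at the medium (adjusted p = 0.161) and -0.09 at the low dose (adjusted p = 0.148, all edgeR). CCN2, with 2338 bases, was then at 0.08 at the high dose (adjusted p = 0.149, edgeR). AMOTL2, with 4868 bases, was still called at all 3 doses. AXL, with 4717 bases, was then called higher at the high dose (0.13, adjusted p = 0.0271, edgeR). The share of counts from mitochondrial genes was 11.2% to 14.1% in the EESF libraries against 11.6% to 11.9% in vehicle B, and 7.79% to 11.4% in the WESF libraries against 10.3% to 10.6% in vehicle A. The part of length and of mitochondrial RNA in these results was not tested beyond that subtraction.

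**Figure D2:**
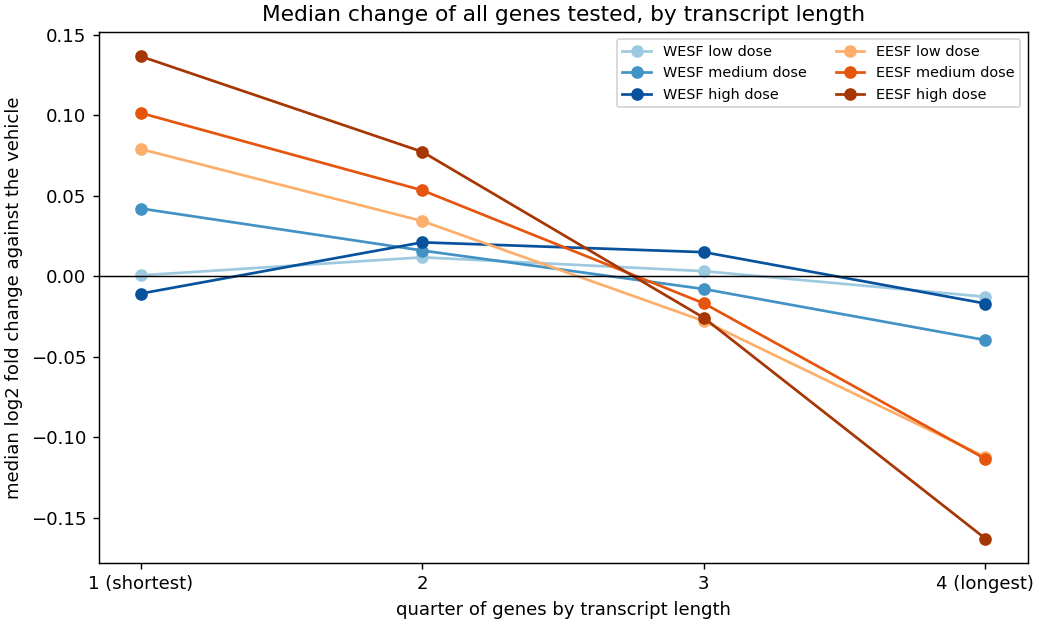
Median log2 fold change against the vehicle of the batch for all genes tested, in 4 classes of transcript length of equal size, with 1 line per extract and dose. The EESF lines run from 0.14, 0.10 and 0.08 in the shortest class to -0.16, -0.11 and -0.11 in the longest, and the WESF lines stay between -0.04 and 0.04.

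Counted together, 4 of the 10 genes rose (CCN1, CCN2, AMOTL2 and LATS2) and 3 fell (ANKRD1, AJUBA and WWTR1) at the high dose of WESF at an adjusted p under 0.05 (edgeR). Among all 13129 genes tested there, 68.9% were called, 34.3% higher and 34.6% lower, so that 7 of 10 is near the share of all genes. CCN1 and LATS2 rose and ANKRD1 fell by more than 1.5-fold, the added threshold for a differentially expressed gene (DEG). The median log2 fold change of the 10 genes was -0.01, and that of all genes was 0.00. The high dose of EESF called the same number, 4 higher (CCN1, CCN2, AMOTL2 and LATS2) and 3 lower (ANKRD1, WWTR1 and TEAD1), beside 58.0% of 13092 genes, 29.3% higher and 28.7% lower. DEGs were CCN1 and ANKRD1 in that comparison, and the median of the 10 genes was again -0.01 against 0.01 for all genes.

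At the medium dose of WESF 1 of the 10 genes was called (CCN1), with 4.10% of all genes, and at the low dose 0 of the 10 with 0% of 13131 genes. At that low dose 470 genes and none of the 10 had an unadjusted p under 0.05, and DESeq2 called 1 gene, which was not a member. EESF called 2 of the 10 (AMOTL2 and TEAD1) at the medium dose, beside 15.4% of all genes, and the same 2 at the low dose, beside 9.35%. Compared within the batch, without the vehicle, high-dose WESF against low-dose WESF called 8 of the 10 genes, beside 68.1% of all genes. AXL was among them, at a log2 fold change of -0.13 (adjusted p = 0.0259, edgeR), a call lost without high-dose replicate 1 or 3 or low-dose replicate 3 (adjusted p = 0.0573 to 0.132) or with the length trend removed (adjusted p = 0.0607). AMOTL2, another of the 8 (0.11, adjusted p = 0.0324, edgeR), lost its call in 8 alternatives, among them DESeq2 (adjusted p = 0.0836), thinned counts (adjusted p = 0.107) and any of 4 libraries left out (adjusted p = 0.0681 to 0.139). High-dose EESF against low-dose EESF called 6 of the 10, beside 57.0%, with CCN1 at 0.90 and ANKRD1 at -0.65 (log2 fold changes). CCN2 was among them (0.20, adjusted p = 0.0192, edgeR). Its call was lost without low-dose replicate 2 (0.13, adjusted p = 0.123) or high-dose replicate 3 (adjusted p = 0.0654). YAP1 was called without high-dose replicate 1 (-0.13, adjusted p = 0.0128), and AXL with the length trend removed (0.11, adjusted p = 0.0307). Between these doses TEAD1 had a log2 fold change of -0.17 and an adjusted p of 0.0608 by edgeR. It was called with DESeq2 (adjusted p = 0.0405), with library size alone (adjusted p = 0.0290), with no filter on low counts (adjusted p = 0.0441) and without high-dose replicate 1 (-0.27, adjusted p = 1.08e-04).

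**Figure D3:**
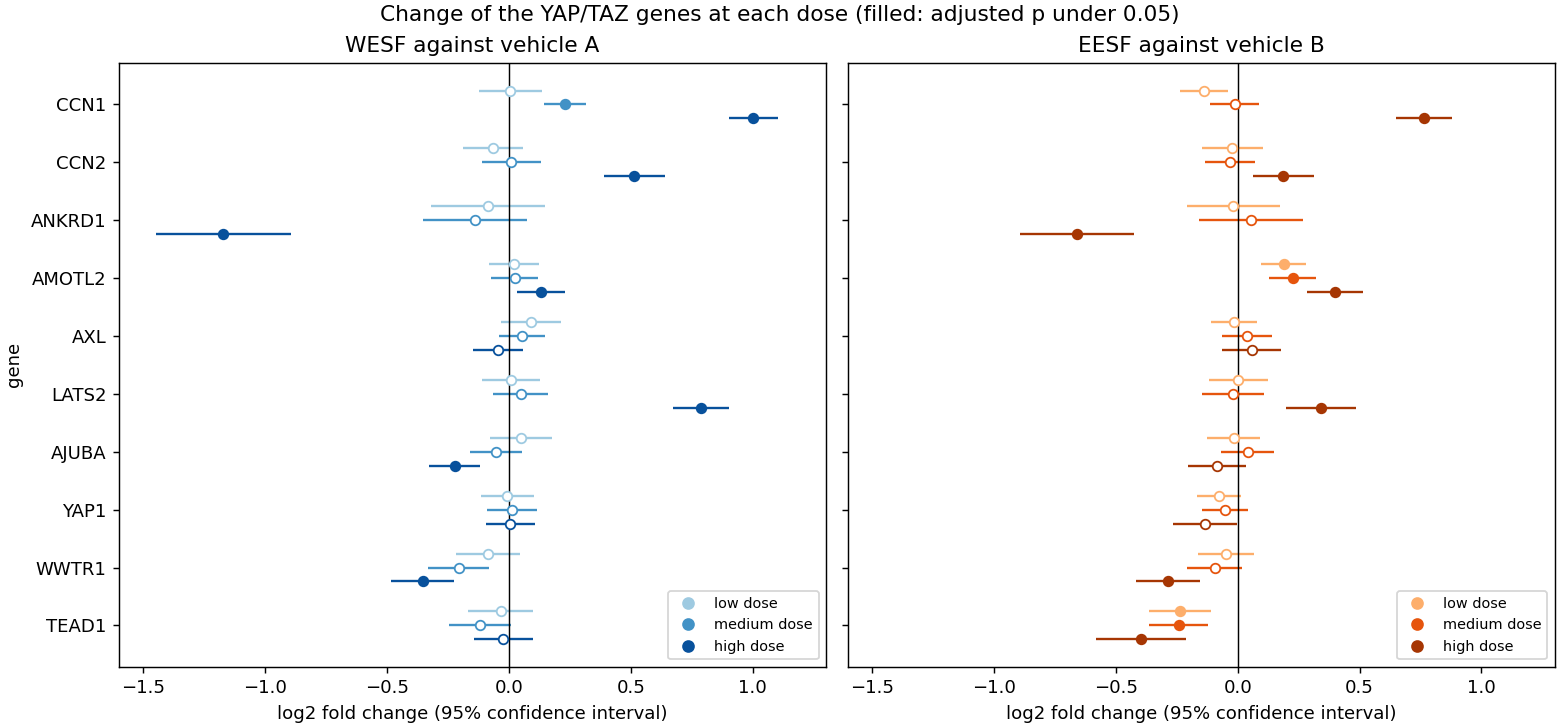
Log2 fold change of each gene with its 95% confidence interval at the low, medium and high dose of WESF (left) and EESF (right) against the vehicle of the batch, filled where the adjusted p was under 0.05. At the high doses 4 genes lie to the right of 0 and 3 to the left as filled points, with CCN1 at 1.00 and 0.77 and ANKRD1 at -1.17 and -0.66.

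The changes under the extracts were compared with an interaction test in a fit of 12 libraries, as the EESF change minus the WESF change on the log2 scale. At the high dose 6 of the 10 genes differed, beside 26.0% of 13376 genes. EESF raised CCN1 (-0.24, adjusted p = 0.0201), CCN2 (-0.33, adjusted p = 0.0153) and LATS2 (-0.44, adjusted p = 0.00197) less than WESF did. It lowered ANKRD1 less (0.51, adjusted p = 0.0487) and raised AMOTL2 more (0.27, adjusted p = 0.00652). TEAD1, which passed the test with EESF and not with WESF, differed by -0.37 (adjusted p = 0.0276, all edgeR). With the replicate number as a block 3 of the 10 genes differed, as CCN1 (adjusted p = 0.0691), CCN2 (adjusted p = 0.0618) and TEAD1 (adjusted p = 0.0834) missed the threshold. With the length trend removed TEAD1 differed by -0.19 (adjusted p = 0.0454). The difference of ANKRD1 missed the threshold in 12 of 21 alternatives, among them DESeq2 (adjusted p = 0.0551), DESeq2's size factors (adjusted p = 0.0525), all genes of the table (adjusted p = 0.0646), the length trend removed (0.39, adjusted p = 0.103) and any of 8 libraries left out (0.37 to 0.56, adjusted p = 0.0590 to 0.142). That of TEAD1 missed it with any of 7 left out (-0.37 to -0.30, adjusted p = 0.0519 to 0.0733). The difference of CCN1 missed it without high-dose WESF replicate 3 (log2 difference -0.19, adjusted p = 0.0657).

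With all libraries used no difference was called for the other 4 genes, and their 95% intervals show what remains possible. They were -0.06 to 0.26 for AXL, -0.01 to 0.29 for AJUBA, -0.30 to 0.03 for YAP1 and -0.12 to 0.26 for WWTR1. Without high-dose EESF replicate 1 YAP1 was called, with a difference of -0.21 in place of -0.14 (adjusted p = 0.0232, edgeR). At the medium doses none of the 10 genes differed between the extracts by edgeR, beside 0.203% of all genes (27 genes). Over all genes that count was 141 with DESeq2, 0 with the replicate block, 606 with a block term for the vehicle libraries alone and 1 to 146 with a library left out. CCN1 came nearest (-0.25, adjusted p = 0.0876), and it was called with DESeq2 (adjusted p = 0.00490), with the length trend removed (-0.30, adjusted p = 0.00967) and where same-numbered vehicle libraries shared a block term (adjusted p = 0.00896). That block also called AMOTL2 (0.20, adjusted p = 0.0378). At the low doses 0 of the 10 genes were called by edgeR or DESeq2, beside 0.00756% of 13221 genes, of which 1390 had an unadjusted p under 0.05. That share is 1 gene, and 54 genes were called with DESeq2, 11 with the replicate block and 223 with the block term for the vehicle libraries alone. The doses compared differ in µg/mL, and batch cannot be told apart from extract.

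Other genes of the system were read from lists by function, described by counts and not tested as lists. Of 16 other YAP/TAZ targets 8 rose and 4 fell at the high dose of WESF, with a median log2 fold change of 0.16, and 7 rose and 5 fell at that of EESF, with a median of 0.07. Over all genes 68.9% and 58.0% were called at these doses, and 12 of 16 is near the first of these shares. F3, which encodes tissue factor, the starter of coagulation, rose most. Its level went from 136, 132 and 132 CPM in vehicle A to 375, 358 and 382 CPM (log2 fold change 1.48, SE 0.044, adjusted p = 4.87e-14, edgeR). In batch B it went from 143, 132 and 132 CPM to 343, 316 and 347 CPM (log2 fold change 1.31, SE 0.057, adjusted p = 7.84e-09, edgeR). F3 was also higher at both medium doses, by 1.27-fold with WESF and 1.22-fold with EESF (adjusted p = 0.00124 and 0.00169, edgeR). GADD45A, a stress-induced growth arrest gene, rose 1.72-fold and 1.70-fold at the high doses (adjusted p = 1.13e-09 and 1.01e-06, edgeR). PTPN14, which encodes a phosphatase that binds YAP, was picked after its values were seen, and its log2 fold changes were -0.41, -0.40 and -0.51 from the low to the high dose of EESF. Its transcript has 13360 bases, and with the length trend subtracted the last value was -0.17 (adjusted p = 0.00514, edgeR). At the high dose of WESF its log2 fold change was 0.13 (adjusted p = 0.0834, edgeR), and it was called higher there with the length trend removed (0.22, adjusted p = 3.90e-05), with all 4 groups of the batch (adjusted p = 0.0446) and without vehicle A replicate 3 (0.21, adjusted p = 0.00314).

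Of 21 Hippo kinases and regulators, 9 rose and 3 fell with the high dose of WESF (34.3% and 34.6% of all genes), and 5 rose and 5 fell with that of EESF (29.3% and 28.7%). FAT4, a giant protocadherin upstream of the pathway, had the largest fall. Its vehicle libraries held 45.2, 59.0 and 55.6 CPM (A) and 46.7, 54.7 and 56.7 CPM (B). At the high doses it had 34.9, 30.6 and 32.6 CPM with WESF (log2 fold change -0.70, SE 0.082, adjusted p = 8.03e-07, edgeR) and 26.5, 20.7 and 17.4 CPM with EESF (log2 fold change -1.29, SE 0.12, adjusted p = 2.98e-06, edgeR). AMOT, a motin related to AMOTL2, fell as well (-0.54 and -0.82 on the log2 scale, adjusted p = 2.53e-05 and 6.75e-05, edgeR). STK3 and STK4, the MST kinases, picked after their values were seen, rose at both high doses, STK3 at 0.58 and 0.38 and STK4 at 0.45 and 0.24. FAT4 has a transcript of 17151 bases, and with the length trend subtracted it was still called with EESF (-0.90, adjusted p = 8.37e-08, edgeR). At the medium and low dose of EESF 0 genes of the list rose and 9 and 8 fell, beside 15.4% and 9.35% of all genes called. With WESF none of the list was called at those doses, beside 4.10% and 0%. With the length trend subtracted 11 genes of the list rose and 3 fell at the high dose of EESF. That fit called 7895 genes over all genes, against 7589 without the subtraction.

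Of 7 other TEADs and VGLL cofactors 6 were tested, and 1 rose and 4 fell with WESF while 0 rose and 4 fell with EESF at the high doses. Of all genes 34.3% rose and 34.6% fell with WESF, and 29.3% and 28.7% with EESF. VGLL3, another TEAD cofactor, named after its values were seen, rose with WESF (0.26, adjusted p = 0.005) and fell with EESF (-0.20, adjusted p = 0.0478, edgeR). The call with EESF was lost with DESeq2 (adjusted p = 0.0676), with thinned counts (adjusted p = 0.0923) and with the replicate block (adjusted p = 0.0956). It was also lost with any of 4 libraries left out (adjusted p = 0.100 to 0.173), and with the length trend removed the value was 0.08 (adjusted p = 0.266). VGLL2, a TEAD cofactor of muscle, stood at 2.15 CPM or less in all libraries and fell most (-1.98 and -1.45, adjusted p = 3.04e-06 and 7.57e-04, edgeR). TEAD2 and VGLL4, a repressor of TEAD, picked after their values were seen, fell at both high doses (TEAD2 -0.57 and -0.34, VGLL4 -0.42 and -0.45 on the log2 scale). Of the 3 other CCN genes tested, 2 fell at each high dose (34.6% and 28.7% of all genes with WESF and EESF), while CCN1 and CCN2 rose. CCN4 (WISP1), known as a WNT target, went from 10.2, 10.1 and 12.7 CPM to 2.75, 2.66 and 2.58 CPM with the high dose of WESF (log2 fold change -2.04, SE 0.13, adjusted p = 3.29e-10, edgeR). With the high dose of EESF it went from 9.48, 9.72 and 12.2 CPM to 3.32, 3.45 and 3.39 CPM (log2 fold change -1.62, SE 0.12, adjusted p = 4.86e-07, edgeR). CCN3 (NOV) fell as well (-1.28 and -1.09, adjusted p = 5.28e-07 and 8.49e-06, edgeR). Both were also lower at the medium dose of WESF, CCN4 at -0.60 (adjusted p = 0.00909) and CCN3 at -0.44 (adjusted p = 0.0281, edgeR). Over all genes 4.10% were called there. Neither CCN4 nor CCN3 was called at the medium dose of EESF (-0.18 and -0.27) or at the low doses. CCN6 was tested and not called, and CCN5 had too few counts to be tested at the high doses.

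SRF/MRTF targets encode contractile and focal adhesion proteins, and 9 of 12 fell and 0 rose with the high dose of WESF, with a median log2 fold change of -0.36, beside 34.6% of all genes that fell and 34.3% that rose. With EESF 6 fell and 2 rose, with a median of -0.18, beside 28.7% and 29.3%. ACTA2, smooth muscle actin, went from 102, 107 and 98.7 CPM to 50.5, 49.8 and 52.2 CPM with WESF (log2 fold change -1.02, SE 0.048, adjusted p = 1.22e-11, edgeR) and from 104, 100.1 and 92.5 CPM to 56.5, 57.7 and 56.5 CPM with EESF (log2 fold change -0.80, SE 0.056, adjusted p = 2.61e-07, edgeR). TPM1, a tropomyosin, fell at both high doses (-0.86 and -0.62, adjusted p = 5.21e-11 and 2.13e-06, edgeR). CNN1, calponin, fell with WESF (-0.92, adjusted p = 6.17e-05, edgeR) and had 2.19, 2.65 and 2.76 CPM with EESF against 2.27, 2.51 and 2.57 CPM in vehicle B. The vehicles of CNN1 did not overlap, with 3.502, 3.29 and 3.15 CPM in vehicle A.

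**Figure D4:**
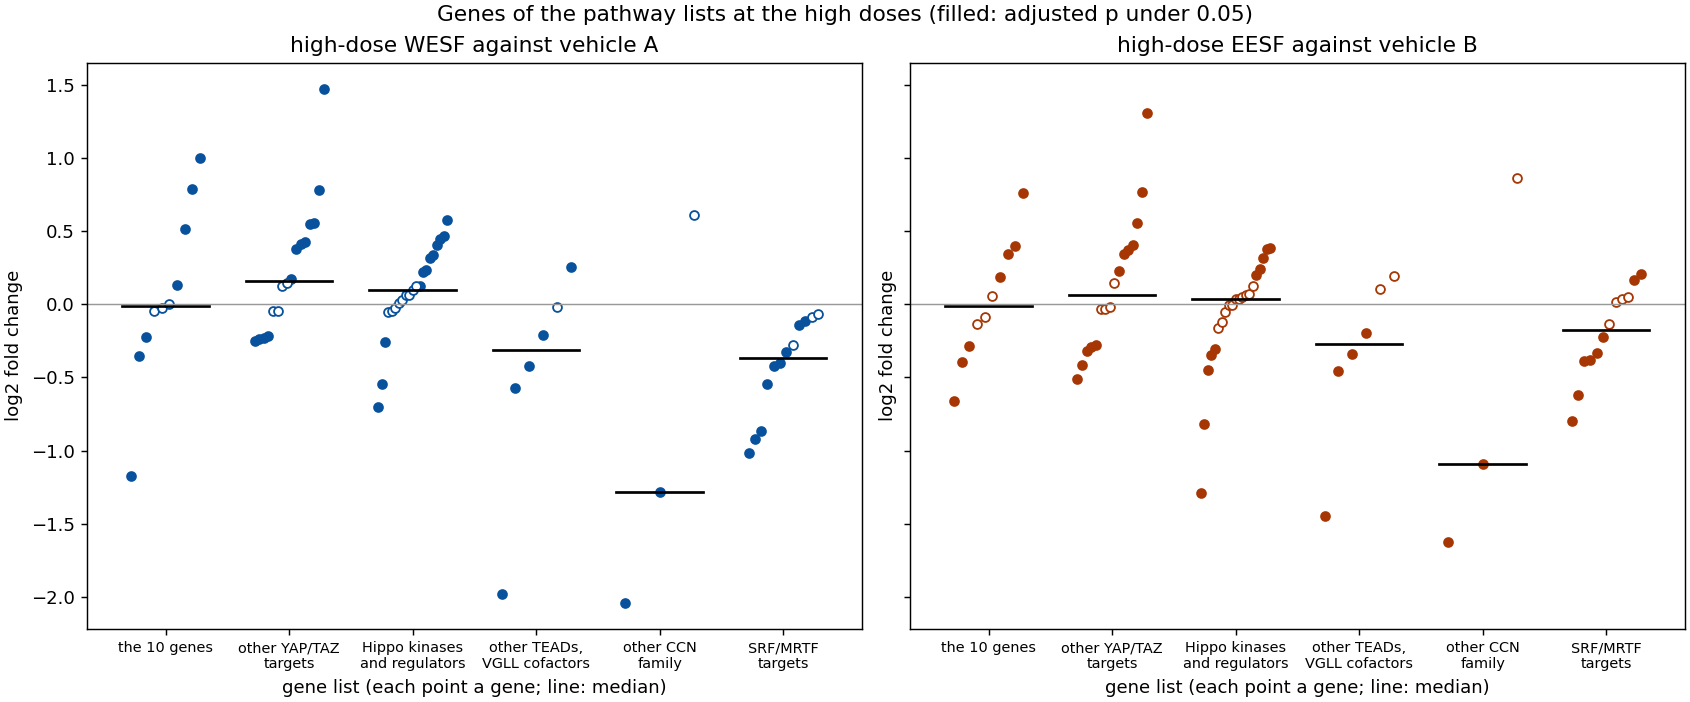
Log2 fold change of every tested gene of 6 lists at the high dose of WESF (left) and EESF (right), filled where the adjusted p was under 0.05, with the median of each list as a line. The 10 genes spread on both sides of 0 (medians -0.01), while the SRF/MRTF targets have medians of -0.36 and -0.18.

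Markers of other cell types moved with the high doses, at which 68.9% of all genes were called with WESF and 58.0% with EESF. All 3 astrocyte markers that were tested fell with both extracts, SLC1A3 by 1.62 and 1.39 on the log2 scale with WESF and EESF. Their list summed to 232 to 249.7 CPM in the high dose of WESF against 309 to 326 CPM in vehicle A, and to 228 to 237 CPM in that of EESF against 315 to 335 CPM in vehicle B. GJA1 was the most abundant of the list in every group. At the medium doses of WESF and EESF SLC1A3 was called lower as well (-0.36 and -0.30, adjusted p = 0.0055 and 0.0044, edgeR). So was SOX9 (-0.24 and -0.23, adjusted p = 0.0151 and 0.0224, edgeR), and GJA1 was not. SYT1 was also called lower at both medium doses, and COL3A1 and PTPRC at that of EESF. Over all genes 4.10% and 15.4% were called at the medium doses. Of the mesenchymal list 1 rose and 5 fell with WESF and 0 rose and 5 fell with EESF, and its sum went from 5607 to 5871 CPM in vehicle A to 5031 to 5303 CPM with WESF and from 5560 to 5859 CPM in vehicle B to 5286 to 5489 CPM with EESF, led by COL1A1 throughout. At the low dose of EESF the mesenchymal sum was already 5274 to 5443 CPM. Of the neuronal markers tested, 1 rose and 2 fell with WESF and 2 of 2 fell with EESF. RBFOX3 was the one that rose, from 0.147, 0.0723 and 0.117 CPM in vehicle A to 0.762, 0.838 and 0.526 CPM with the high dose of WESF (log2 fold change 2.60, SE 0.43, adjusted p = 3.83e-05, edgeR), at 2 to 4 counts per vehicle library and 12 to 18 with the dose. RBFOX3 passed the filter on low counts there only through the treated libraries, so that this value supports nothing further. Neuronal markers, led by SNAP25 or SYT1, summed to 22.0 to 24.4 CPM against 51.5 to 55.5 CPM, and immune markers, led by PTPRC, to 3.90 to 4.12 CPM against 13.7 to 14.3 CPM, for WESF at its high dose and vehicle A. With EESF at its high dose and in vehicle B the neuronal sums were 24.0 to 28.8 CPM against 55.5 to 57.1 CPM and the immune sums 3.92 to 4.57 CPM against 12.9 to 14.3 CPM. Of the 2 epithelial markers tested KRT18 fell and KRT8 rose with both extracts, KRT8 by 0.20 (adjusted p = 0.0374) and 0.31 (adjusted p = 0.00218, edgeR) on the log2 scale. The rise of KRT8 with WESF missed the threshold with DESeq2 (adjusted p = 0.0830) and with any of 5 libraries left out (adjusted p = 0.0622 to 0.152). The epithelial markers, led by KRT18, summed to 62.1 to 66.7 CPM with WESF against 133 to 150.2 CPM, and to 80.5 to 100.6 CPM with EESF against 126 to 136 CPM. The part of these markers in the results was not tested. Every library comes from 1 line, and in bulk RNA fewer cells holding a marker's RNA and less of it per cell cannot be told apart.

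Among members other than ANKRD1, which was left out, likeness was described as Pearson's r of log2 CPM over the 24 libraries. The vehicle mean of the batch was subtracted first, and no test was made, since the libraries share doses, batches and depth. CCN1 ran with LATS2 (r = 0.90) and CCN2 (r = 0.883) and against WWTR1 (r = -0.865), and CCN2 ran against AJUBA (r = -0.873). YAP1 ran with TEAD1 (r = 0.868), and AMOTL2 against TEAD1 (r = -0.799). Among 9549 genes with a mean of at least 10 CPM, the genes most like CCN1 were IFRD1 (r = 0.982), ZCCHC7 (r = 0.982) and EIF4A2 (r = 0.980). Those most like CCN2 were RAB5A (r = 0.925), TFPI2 (r = 0.924) and FDFT1 (r = 0.923). Those most like YAP1 included NCKAP1 (r = 0.922) and RIF1 (r = 0.899). None of the genes named here for their likeness was in the lists of the pathway.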

How the data were processed

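The authors trimmed paired-end reads of a directional library (FastQC 0.11.9, Trim Galore 0.6.6), aligned them with STAR 2.7.9a and deposited RSEM 1.3.3 expected counts per Ensembl gene, unfiltered and without pooling of replicates. The build is given as GRCh38 (hg38) in the submitters' processing notes. The study's methods set the label of another build beside GRCh38, and GRCh38 was taken here. Whether RSEM used strand is not given in the sources used here, so reads of antisense partners may be mixed.

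Of the expected counts deposited, 10.9% were not whole, and all were rounded. Of 60675 genes, 56558 matched GENCODE 44 and 19586 were protein-coding. Protein-coding genes passing edgeR's filterByExpr were fitted with edgeR 4.0.16 (TMM, quasi-likelihood test, two-sided, R 4.3.3), in 6 libraries per comparison and 12 for the extract difference, and p-values were adjusted by Benjamini-Hochberg over all genes tested. Called means an adjusted p under 0.05, and a DEG also a fold change over 1.5. Depth of 18727797 to 32567395 counts per library leaves ANKRD1, with 68 counts at the least, the least precise member. Alternatives were DESeq2 1.42.0, other scaling and filters, thinned counts, all groups of a batch, a replicate block, each library left out and, added after seeing the data, a transcript length correction and a block of the vehicles alone. The genes named beside the 10 were the up to 3 largest rises and falls over 1.5-fold of each list at each high dose, the list markers and the 3 genes most like CCN1, CCN2 or YAP1, of which 1 is not reported here. PTPN14, STK3, STK4, TEAD2, VGLL3 and VGLL4 fall outside that rule and were named after their values were seen. Members and lists were chosen with earlier results of these data known. The fits were tested on simulated data.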

Additional observations from a re-analysis of the deposited data

Results flagged for a closer look

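Of the pathway genes named in the text, 12 changed by different amounts under the high dose of the extracts, by the interaction test of edgeR in 12 libraries. Over all genes 26.0% were called there. Apart from the 10, genes were named for large changes at the high doses or, as PTPN14 and VGLL3, after their values were seen. The count of 12 therefore rests in part on that choice. Values are log2 differences, the WESF change subtracted from the EESF change. Among the 10 genes of the system, the difference was -0.24 for CCN1 (adjusted p = 0.0201), -0.33 for CCN2 (adjusted p = 0.0153) and -0.44 for LATS2 (adjusted p = 0.00197), all of which rose with both extracts and rose more with WESF. ANKRD1, which fell with both, differed by 0.51 (adjusted p = 0.0487), a call lost in 12 of 21 alternatives. AMOTL2 differed by 0.27 (adjusted p = 0.00652) and TEAD1 by -0.37 (adjusted p = 0.0276). In the other lists FAT4 differed by -0.59 (adjusted p = 0.0204), ACTA2 by 0.22 (adjusted p = 0.0298), TPM1 by 0.24 (adjusted p = 0.0206) and CNN1 by 0.98 (adjusted p = 0.00272, all edgeR). PTPN14 differed by -0.64 (adjusted p = 0.00160), and VGLL3, which rose with WESF and fell with EESF, by -0.45 (adjusted p = 0.0109, edgeR). The fall of VGLL3 with EESF missed the threshold with DESeq2 (adjusted p = 0.0676) and with the replicate block (adjusted p = 0.0956, edgeR). It turned to 0.08 with the length trend removed (adjusted p = 0.266, edgeR). For CNN1 the vehicles themselves did not overlap, and vehicle B against vehicle A had a log2 fold change of -0.44 (unadjusted p = 0.00839, adjusted p = 1.0, edgeR). Leaving out 1 library ended the call of ACTA2 for any of 6 libraries (adjusted p = 0.0549 to 0.0961), that of TPM1 for any of 5 (adjusted p = 0.0536 to 0.0635) and that of FAT4 for any of 3 (adjusted p = 0.0507 to 0.0549). Of the 12 SRF/MRTF targets, 7 had a higher and 1 a lower change with EESF than with WESF at an adjusted p under 0.05, beside 26.0% of all genes called. With the replicate number as a block CCN1, CCN2, TEAD1, FAT4, ACTA2 and TPM1 missed the threshold (adjusted p = 0.0618 to 0.0834), and with the length trend removed ACTA2 was at 0.07 (adjusted p = 0.428) and TPM1 at 0.08 (adjusted p = 0.346, edgeR). With that trend removed FAT4 was at -0.59 with WESF and -0.90 with EESF against the vehicles, in place of -0.70 and -1.29. PTPN14 was then at 0.22 with WESF and -0.17 with EESF. Extract and batch cannot be told apart in these differences.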

How the results depend on the processing

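No called value of the 10 genes turned its direction under an alternative run, and of the 19 other genes recomputed only VGLL3 did so, at the high dose of EESF with the length trend removed (-0.20 to 0.0777). Of the counts of called genes, 466 values under an alternative lay within 1.5 times the reported count and 31 did not. For the 10 genes 1883 values stayed on their side of the threshold, 60 lost a call and 27 gained one, and for the other genes 3503, 61 and 44. At the medium dose of WESF, where 1 of the 10 genes was called, 2 were called with no filter on low counts, with the length trend removed or with all 4 groups of the batch, and 0 to 3 with a library left out. At the medium dose of EESF (2 called) the length trend removed left 1, and leaving out a library 1 to 3. At the low dose of EESF (2 called) all 4 groups of the batch gave 1, and leaving out a library 0 to 2. For the extract difference at the medium dose (0 called) DESeq2 and the length trend removed each gave 1. In the Hippo list at the high dose of EESF 11 rose and 3 fell with the length trend removed, against 5 and 5. Over all genes 7895 were called with that trend removed, against 7589. Of the SRF/MRTF targets 2 rose at that dose, but 1 with thinned counts, 0 with the length trend removed and 0 to 2 with a library left out. Of the other TEADs and VGLL cofactors 0 rose there, but 1 with all 4 groups of the batch and 0 to 1 with a library left out, and of the other CCN genes likewise 0 to 1 with a library left out. Over all genes, leaving out 1 library moved the count called from 537 to between 72 and 1560 at the medium dose of WESF, from 1997 to between 791 and 2838 at the medium dose of EESF and from 1206 to between 213 and 2679 at the low dose of EESF, so that the shares of called genes at these doses are loose. The causes were not tested.

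With the replicate number as a block, 3 of the 10 genes differed between the extracts at the high dose instead of 6, since CCN1 (adjusted p = 0.0691), CCN2 (adjusted p = 0.0618) and TEAD1 (adjusted p = 0.0834, edgeR) missed the threshold. The block gave 1 risen SRF/MRTF target at the high dose of EESF, and ended the call of CCN2 there (adjusted p = 0.0508, edgeR). For vehicle B against vehicle A it called 1 of the 10 genes, and a block of the vehicles alone called 2 of the 10 for the extract difference at the medium dose. Outside the vehicles, same-numbered libraries did not deviate together in every pair. Over genes of at least 10 CPM, r between a dose and its vehicle ran from -0.489 to 0.237. Whether same-numbered libraries share a source was not tested. Over all genes the block called 185 at the medium dose of WESF instead of 537, and 2245 instead of 3481 for the extract difference at the high dose. Depth limits ANKRD1 most.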
